A study of Mus musculus with 47 samples.

Results

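The liver enzymes that turn cholesterol into conjugated bile acids were followed in a mouse liver array series. They were chosen by gene name, with earlier results of these data known: Cyp7a1, Cyp8b1, Cyp27a1, Cyp7b1, Cyp39a1, Cyp2c70, Hsd3b7, Akr1d1, Slc27a5 and Baat. These 10 genes have 14 probes on the array, and all 14 were among the 32979 probes, for 21877 genes, that were bright enough to be tested. Liver RNA came from 47 mice, one array a mouse, of both sexes and of 2 Pxr genotypes, with or without antibiotics. PXR, encoded by Nr1i2, is a nuclear receptor for foreign compounds and some bile acids, and the question was how the liver responds to depletion of gut microbes when it is present or absent.

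Pxr+/+ and Pxr-/- mice were littermates from Pxr+/- dams on a C57Bl/6J background, split by sex and genotype at 5 weeks of age and 6 months old at treatment. The deletion is a whole-body one, so the receptor is lacking in intestine as well as liver. ATB mice drank ampicillin at 1 g/L, neomycin at 1 g/L and vancomycin at 0.5 g/L in tap water for 2 weeks, and Cont mice drank tap water. All were killed at ZT6, which is 6 h after lights on. Each of the 8 groups (M or F, Pxr+/+ or Pxr-/-, Cont or ATB) had 6 mice, except M Pxr-/- Cont, which had 5. Each group was housed in 2 cages, and which mice shared a cage is not given in the labels, so p-values measure the spread between mice without regard to cage.

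Bile acids are made from cholesterol in hepatocytes. In the classical route Cyp7a1 makes the first and rate-limiting hydroxylation, and Cyp8b1 adds the 12-alpha hydroxyl group that directs synthesis to cholic acid. In the alternative routes Cyp27a1 oxidises the sterol side chain, Cyp7b1 adds the 7-alpha hydroxyl group to the resulting oxysterols, and Cyp39a1 does so chiefly to 24-hydroxycholesterol. Hsd3b7 and Akr1d1 then modify the steroid ring, Cyp2c70 forms the muricholic acids typical of mice, Slc27a5 activates bile acids with coenzyme A, and Baat joins them to taurine or glycine. Gut bacteria deconjugate and dehydroxylate bile acids, and the returning pool represses Cyp7a1 and Cyp8b1 through the nuclear receptor FXR, encoded by Nr1h4.

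The probes that carry the values below lie at the following mm9 positions according to the array files. The first 30 of the 60 bases of each are printed for the 6 enzymes that passed a test on their brightest probe for an ATB, PXR or sex difference and are discussed most, so that the transcript region measured can be identified. No base is singled out here, so no capitals are used.
Cyp7a1 (chr4:6193456-6193515, minus strand): ttgtttttaaaacaagttttatgactccct
Cyp8b1 (chr9:121824595-121824654, minus strand): aaacctggaaaaagacggcataagctgttg
Cyp7b1 (chr3:17972286-17972345, minus strand): ttggttgagatcaatccagttggttttggg
Cyp39a1 (chr17:43887735-43887794, plus strand): ggggaacggaaactggggtgggaatgtatt
Cyp2c70 (chr19:40227969-40228028, minus strand): cttcttctgtgagcaaaaaggtcctcctgt
Baat (chr4:49502933-49502992, minus strand): ttttgtggttggagaagatgataaaaatct

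Promoter sequences from RefSeq (GRCm38.p6) were at hand for 5 of the 10 enzymes: Cyp8b1, Cyp27a1, Cyp2c70, Hsd3b7 and Akr1d1. The 250 bases before the start of Cyp8b1 and of Cyp2c70 are shown because both hold the letters CAAAGTCCA, a form of the site bound by HNF4-type receptors, in capitals. This motif was chosen after the sequences had been read. The promoters of Cyp27a1, Hsd3b7 and Akr1d1 do not hold it, and Akr1d1, like Cyp8b1 and Cyp2c70, differed between the sexes.
Cyp8b1 (chr9:121916306-121916555, minus strand): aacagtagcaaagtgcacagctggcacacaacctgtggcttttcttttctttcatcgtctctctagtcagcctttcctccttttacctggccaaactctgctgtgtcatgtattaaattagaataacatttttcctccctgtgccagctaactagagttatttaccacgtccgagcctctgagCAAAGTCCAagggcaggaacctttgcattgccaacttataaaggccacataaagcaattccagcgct
Cyp2c70 (chr19:40187287-40187536, minus strand): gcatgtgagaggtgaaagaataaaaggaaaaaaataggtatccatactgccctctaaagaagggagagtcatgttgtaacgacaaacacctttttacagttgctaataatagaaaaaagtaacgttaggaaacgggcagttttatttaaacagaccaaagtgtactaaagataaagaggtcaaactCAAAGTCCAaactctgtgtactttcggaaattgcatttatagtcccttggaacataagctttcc
The match begins 67 bases before the start of Cyp8b1 and 64 bases before that of Cyp2c70, on the strand of the gene. With both strands searched, 0.384% of 32851 promoters of the same length hold these letters. The nuclear receptor half-site AGGTCA, held by 14% of promoters, begins 74 bases before the start of Cyp2c70, where it does not overlap CAAAGTCCA, and lies on the opposite strand 232 and 210 bases before that of Akr1d1. The letters TTCNNNGAA, a STAT-type site held by 7.02% of promoters, begin 21 bases before the start of Hsd3b7. A match is a description of the letters only.

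Levels are log2 of the array signal after removal of the wash batch and normalization across groups. A gene passed the test when limma gave an adjusted p of 0.05 or less, with Benjamini-Hochberg adjustment over all tested probes, and a fold change above 1.2 for at least 1 of its probes. Values are those of the gene's brightest probe. Counts at an unadjusted p under 0.05 took the enzymes and list genes by their brightest probe. All genes were counted there by any probe, so these counts and shares are not strictly alike. Levels of different probes are not comparable, so each enzyme was compared with itself across groups. The brightest probe of each of the 10 enzymes was above background on 47 of 47 arrays and saturated on 0. The second Cyp7a1 probe was above background on 28 arrays. Each group had 5 or 6 mice, and what limits the precision was not tested. In whole liver, fewer cells of a type and less RNA per cell cannot be told apart. The 10 hepatocyte markers examined, which include Alb and Apoa1, had a mean log2 level over the markers between 16.85 and 17.29 in all mice.

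The arrays as a whole set limits on direction. The 75th percentile of the raw signal ran from 306 to 492.5 and was lower in M Pxr+/+ Cont (309.5 to 388.5) than in F Pxr+/+ Cont (404 to 459). With the normalization used here, the median log2 difference of all probes was -0.20 for males against females in Pxr+/+ Cont, -0.12 in Pxr-/- Cont and -0.18 in Pxr-/- ATB. It was -0.11 for PXR loss in F Cont and -0.13 in M ATB. With quantile normalization of all arrays these medians were between -0.01 and 0.02. The share of called genes that were higher rather than lower moved accordingly, from 6.9% to 49.5% for sex in Pxr+/+ Cont, from 29.0% to 46.8% in Pxr+/+ ATB, from 15.5% to 52.1% in Pxr-/- Cont and from 9.5% to 52.1% in Pxr-/- ATB. For PXR loss it moved from 5.8% to 42.7% in F Cont and from 27.4% to 82.4% in M ATB. For the ATB effect it moved from 85.5% to 35% in M Pxr+/+, from 45.8% to 32.7% in M Pxr-/- and from 88.9% to 57.7% in F Pxr-/-. No called difference of the 10 enzymes changed direction under any of the scalings tried. Nr1i2, the targeted gene, had log2 differences of -0.57 to -0.28 for PXR loss that did not pass the test (adjusted p by limma between 0.0844 and 0.997), but where its probe lies relative to the deletion is not known, so this checks nothing.

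**Figure D1:**
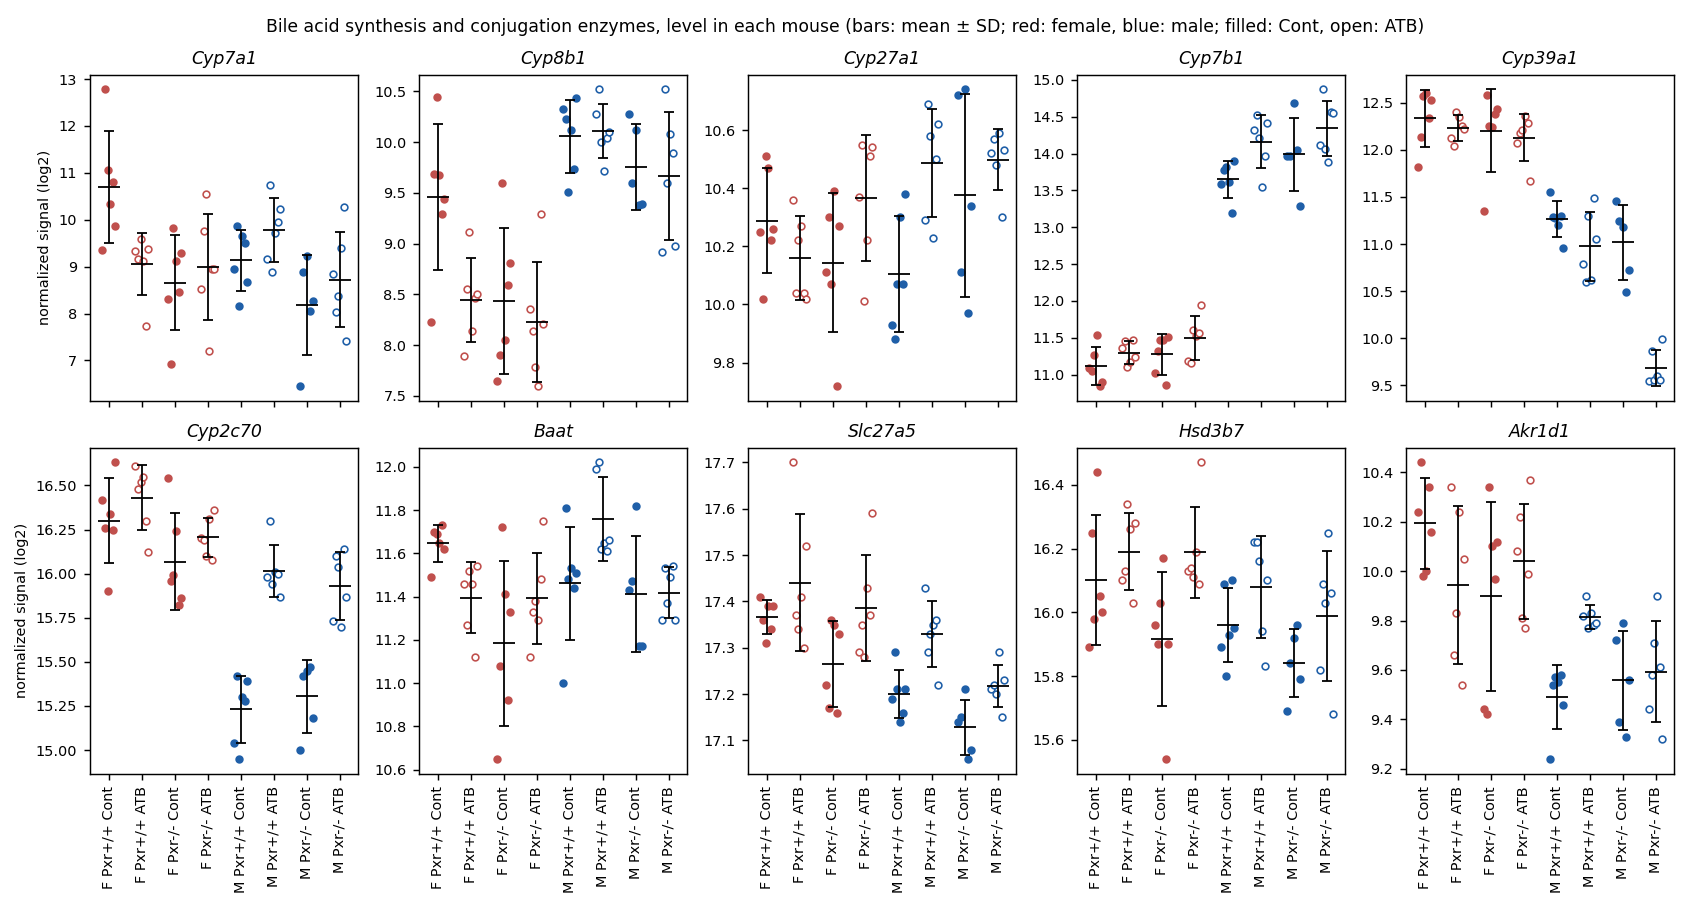
Normalized log2 signal (vertical axis, a separate scale in each panel) of the 10 enzymes in each mouse of the 8 groups (horizontal axis), with the mean and SD of each group. Every male lies above every female for Cyp7b1, Cyp39a1 is lowest in M Pxr-/- ATB (9.55 to 9.99), and the female Pxr+/+ Cont mice reach the highest Cyp7a1 level (12.78).

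Between the sexes, Cyp7b1 was higher in males in all 4 conditions, Cyp39a1 was lower in all 4, and Cyp2c70 and Cyp8b1 differed in 3 each. Cyp7b1 was at 10.85 to 11.54 in F Pxr+/+ Cont (median 11.07) and at 13.19 to 13.9 in M Pxr+/+ Cont (median 13.69). In the other conditions the female range was 11.1 to 11.47 (Pxr+/+ ATB), 10.86 to 11.51 (Pxr-/- Cont) and 11.16 to 11.95 (Pxr-/- ATB), and the male range was 13.54 to 14.52, 13.29 to 14.68 and 13.89 to 14.87. No male overlapped with any female. It was 5.78-fold higher in males in Pxr+/+ Cont (log2 difference 2.53, SE 0.18, adjusted p = 4.72e-15 by limma), 7.28-fold in Pxr+/+ ATB, 6.56-fold in Pxr-/- Cont and 7.16-fold in Pxr-/- ATB. Its second probe gave log2 differences of 2.39 to 2.9.

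Cyp39a1 was the reverse. In F Pxr+/+ Cont it was at 11.82 to 12.6 (median 12.43) and in M Pxr+/+ Cont at 10.96 to 11.55 (median 11.28), with no overlap. The log2 difference of males from females was -1.07 in Pxr+/+ Cont (SE 0.17, adjusted p = 6.14e-06 by limma), -1.26 in Pxr+/+ ATB (adjusted p = 3.42e-07), -1.19 in Pxr-/- Cont (adjusted p = 3.34e-06) and -2.44 in Pxr-/- ATB (adjusted p = 2.9e-15). The last is a 5.44-fold difference. The 4 female group means stood between 12.13 and 12.33, with log2 differences of -0.08 to -0.13 for ATB and PXR loss in females, none of which passed. The male means were 11.26 in Pxr+/+ Cont, 10.97 in Pxr+/+ ATB, 11.02 in Pxr-/- Cont and 9.69 in Pxr-/- ATB.

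Cyp2c70 was also lower in males. It was at 15.9 to 16.63 (median 16.3) in F Pxr+/+ Cont and at 14.95 to 15.42 (median 15.29) in M Pxr+/+ Cont, a log2 difference of -1.07 (adjusted p = 1.81e-09 by limma) with no overlap. The difference was -0.77 in Pxr-/- Cont (adjusted p = 1.08e-05), -0.41 in Pxr+/+ ATB (adjusted p = 0.0134), where the ranges overlapped, and -0.28 in Pxr-/- ATB, which did not pass (adjusted p = 0.0703). As a member of the Cyp2c family it shares sequence with relatives, and cross-hybridisation of its probe was not tested.

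Cyp8b1 was higher in males in 3 of the 4 conditions with the normalization used here. In Pxr+/+ ATB it was at 7.89 to 9.11 in females (median 8.48) and 9.72 to 10.52 in males (median 10.07), a 3.18-fold difference with no overlap (log2 difference 1.67, adjusted p = 8.61e-05 by limma). It was 1.32 higher in Pxr-/- Cont (adjusted p = 0.00312) and 1.43 higher in Pxr-/- ATB (adjusted p = 0.000492). In Pxr+/+ Cont the female range of 8.23 to 10.44 overlapped the male range of 9.51 to 10.43, and the log2 difference of 0.60 did not pass (adjusted p = 0.117). It passed with the processed signal (0.93, adjusted p = 0.0382), with normexp (0.81, adjusted p = 0.0396) and without F replicate 3 (0.80, adjusted p = 0.0407).

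Cyp7a1, the rate-limiting enzyme, was lower in males in Pxr+/+ Cont, at 8.17 to 9.87 (median 9.22) against 9.35 to 12.78 in females (median 10.57). The ranges overlapped, and the log2 difference was -1.57 (SE 0.53, adjusted p = 0.0197 by limma). The highest female, replicate 2 at 12.78, weighed on this value. Without that mouse the log2 difference was -1.14 (adjusted p = 0.083), without M replicate 3 it was -1.37 (adjusted p = 0.0534), and with quantile normalization it was -1.34 (adjusted p = 0.0689). The second probe of Cyp7a1 gave -0.66 in Pxr+/+ Cont (adjusted p = 0.0348), with no overlap. In the other conditions the sex differences on the brightest probe were 0.73, -0.48 and -0.27, and none passed on either probe.

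Among the ring-modifying and conjugating enzymes, Akr1d1, the 5-beta reductase, was lower in males in Pxr+/+ Cont (9.24 to 9.58 against 9.98 to 10.44, log2 difference -0.71, adjusted p = 0.000119 by limma). It was also lower in Pxr-/- ATB (-0.45, adjusted p = 0.0127), where quantile normalization gave -0.25 (adjusted p = 0.149). Leaving out F Pxr-/- ATB replicate 6 gave -0.38 there (adjusted p = 0.0503). The second Akr1d1 probe passed in both conditions, with -0.57 in Pxr+/+ Cont (adjusted p = 0.000901) and -0.50 in Pxr-/- ATB (adjusted p = 0.00361). Baat was higher in males in Pxr+/+ ATB on its second probe only (log2 difference 0.44, adjusted p = 0.0159), with 0.36 on the brighter probe (adjusted p = 0.0656), which passed with quantile normalization (0.39, adjusted p = 0.00551). Slc27a5 had a sex difference of -0.17 in Pxr+/+ Cont (adjusted p = 0.0336) and in Pxr-/- ATB (adjusted p = 0.0387), under the 1.2-fold minimum. Cyp27a1 and Hsd3b7 passed in none of the 4 conditions with the normalization used here. Cyp27a1 had a sex difference of 0.32 in Pxr+/+ ATB, which passed with quantile normalization (0.36, adjusted p = 0.0325), the processed signal (0.42, adjusted p = 0.0111), normexp (0.33, adjusted p = 0.0415), the authors' values (0.35, adjusted p = 0.0432), only the groups compared (adjusted p = 0.0345) and without M replicate 4 (0.38, adjusted p = 0.0495). In Pxr-/- Cont (0.23) it passed with quantile normalization (0.37), the processed signal (0.44) and normexp (0.35), and in Pxr-/- ATB (0.13) with the processed signal (0.35).

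In counts, 1 of the 10 enzymes was higher and 4 were lower in males in Pxr+/+ Cont, where 2.52% of all tested genes were called higher and 34.1% lower. In Pxr+/+ ATB 3 were higher and 2 lower (4.18% and 10.2% of all genes), in Pxr-/- Cont 2 and 2 (2.89% and 15.8%), and in Pxr-/- ATB 2 and 2 (2.88% and 27.4%). The median log2 difference of the 10 enzymes was -0.19, 0.11, -0.11 and -0.18 in these conditions, beside -0.20, -0.04, -0.13 and -0.17 over all genes. How these shares stand against the background depended on the scaling. With quantile normalization 1 enzyme was higher and 3 lower in Pxr+/+ Cont (9.04% and 9.22% of all genes), 4 and 2 in Pxr+/+ ATB (8.02% and 9.13%), 4 and 2 in Pxr-/- Cont (7.69% and 7.08%) and 2 and 1 in Pxr-/- ATB (7.96% and 7.32%). These enzymes were counted by their brightest probe and all genes by any probe. Markers of macrophages moved in the same contrast: 9 of 10 were lower and 1 was higher in Pxr+/+ Cont males, with a mean log2 level over the markers of 10.16 to 10.62 against 11.11 to 12.11 in females, and 8 of 10 stellate cell and 7 of 10 sinusoidal endothelial markers were lower. With quantile normalization 7 macrophage, 2 stellate cell and 5 endothelial markers were lower. Their part in the enzyme differences was not tested.

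**Figure D2:**
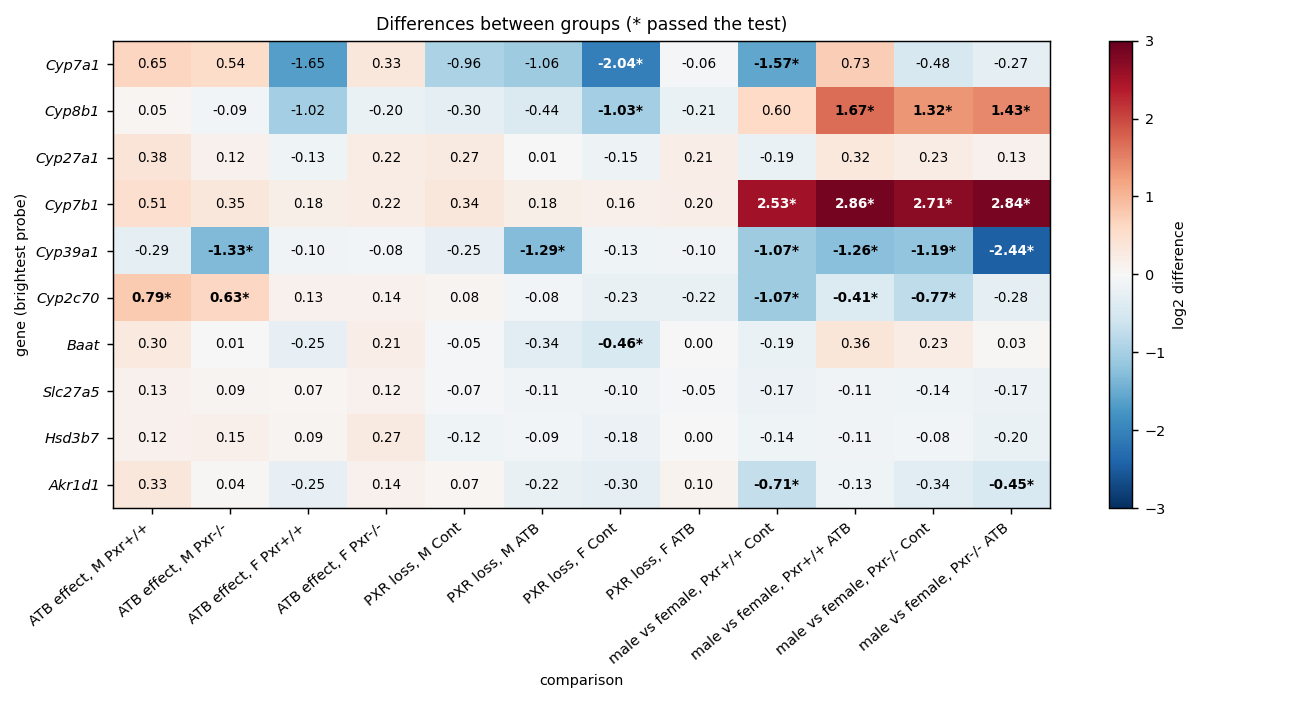
Log2 difference of each enzyme's brightest probe (rows) in the 12 pairwise comparisons (columns), coloured from blue (lower) to red (higher), with an asterisk where that probe passed the test. The sex columns hold most of the asterisks, Cyp7b1 from 2.53 to 2.86 and Cyp39a1 from -1.07 to -2.44, and Cyp2c70 is the one enzyme called higher with ATB.

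Antibiotics raised Cyp2c70 in males of both genotypes. In M Pxr+/+ it was at 14.95 to 15.42 in Cont (median 15.29) and at 15.87 to 16.3 with ATB (median 15.99), with no overlap. This is a 1.73-fold rise (log2 difference 0.79, SE 0.12, 95% interval 0.55 to 1.02, adjusted p = 0.000114 by limma). In M Pxr-/- it was at 15 to 15.47 in Cont (median 15.42) and at 15.7 to 16.14 with ATB (median 15.95), again with no overlap, a 1.54-fold rise (log2 difference 0.63, SE 0.12, adjusted p = 0.0191). Within the 3 wash batches the log2 difference was 0.94, 0.72 and 0.48 in Pxr+/+ and 0.74, 0.33 and 0.96 in Pxr-/-. The third batch held 1 mouse of each group, here and for the other enzymes. The Pxr-/- call was lost in 5 of the 11 fits that left out a mouse, with a lowest value of 0.55 (adjusted p = 0.163) without Cont replicate 2. It was also lost without Cont replicate 6 (0.59, adjusted p = 0.0991), ATB replicate 2 (0.59, adjusted p = 0.0562), ATB replicate 3 (0.61, adjusted p = 0.0636) and ATB replicate 5 (0.58, adjusted p = 0.0722). Fitting only the groups compared lost the call too (adjusted p = 0.185). In females the differences were 0.13 and 0.14 and did not pass. The test of the difference between the sexes gave 0.66 in Pxr+/+ (adjusted p = 0.191), which did not pass.

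Cyp39a1 fell with antibiotics in M Pxr-/-, from 10.49 to 11.46 in Cont (median 11.18) to 9.55 to 9.99 with ATB (median 9.58). All 6 ATB mice were below all 5 Cont mice. The fall was 2.51-fold (log2 difference -1.33, SE 0.18, 95% interval -1.69 to -0.97, adjusted p = 5.06e-05 by limma), with -1.69, -1.04 and -1.16 in the 3 wash batches. In M Pxr+/+ it was at 10.96 to 11.55 in Cont and 10.6 to 11.49 with ATB, and the log2 difference of -0.29 did not pass. The difference between the genotypes was -1.04 (95% interval -1.54 to -0.54, adjusted p = 0.812 by limma), so it did not pass when tested over all probes. That between the sexes in Pxr-/- was -1.25 (95% interval -1.75 to -0.76, adjusted p = 0.129) and did not pass either.

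Cyp7a1 and Cyp8b1 had the largest ATB differences in F Pxr+/+, and neither passed. Cyp7a1 was at 9.35 to 12.78 in Cont and at 7.74 to 9.58 with ATB (log2 difference -1.65, SE 0.53, 95% interval -2.71 to -0.59, adjusted p = 0.274 by limma). Cyp8b1 was at 8.23 to 10.44 in Cont and at 7.89 to 9.11 with ATB (-1.02, SE 0.30, 95% interval -1.63 to -0.41, adjusted p = 0.247). In both the ranges overlapped on the brightest probe. The second probe of Cyp7a1 gave -0.66 (adjusted p = 0.355), with no overlap. Without F Pxr+/+ Cont replicate 1, the lowest Cont mouse for both enzymes, the Cyp8b1 difference was -1.27 and passed (adjusted p = 0.0297). Within the wash batches Cyp7a1 differed by -1.72, -2.12 and -0.50 and Cyp8b1 by -1.08, -0.98 and -0.94. In males and in F Pxr-/- the Cyp7a1 estimate was of the other sign, but the 95% intervals hold changes of either sign. It was 0.65 in M Pxr+/+ (-0.41 to 1.71), 0.54 in M Pxr-/- (-0.57 to 1.65) and 0.33 in F Pxr-/- (-0.73 to 1.39), and none passed. The wash batches gave 0.61, 0.25 and 1.55 in M Pxr+/+, 0.74, -0.24 and 2 in M Pxr-/-, and 1.25, 0.15 and -2.09 in F Pxr-/-. The difference between the sexes in Pxr+/+ was 2.30 (adjusted p = 0.274), and that between the genotypes in females was 1.98 (adjusted p = 0.45).

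In M Pxr+/+, 5 further enzymes had an ATB difference at an unadjusted p under 0.05 that did not survive adjustment, besides Cyp2c70, in a comparison where 22.9% of all genes were at that level. Among them were Akr1d1, whose ATB mice (9.77 to 9.9) stood above all Cont mice (9.24 to 9.58, log2 difference 0.33, adjusted p = 0.197 by limma), Cyp27a1 (0.38, adjusted p = 0.0989) and Cyp7b1 (0.51, adjusted p = 0.126). In counts, 1 of 10 enzymes was higher and 0 lower with ATB in M Pxr+/+, where 1.13% of all genes were called higher and 0.192% lower. In M Pxr-/- 1 was higher and 1 lower (0.0503% and 0.0594% of all genes). In F Pxr+/+ limma called 0 of 10, with 2 at an unadjusted p under 0.05, a level met by 13.9% of all genes (0.00457% of all genes higher and 0.0137% lower), and in F Pxr-/- 0 of 10, with 1 at that level, met by 15.7% of all genes (0.0366% and 0.00457%). The median over the enzymes was 0.31 in M Pxr+/+, 0.10 in M Pxr-/-, -0.12 in F Pxr+/+ and 0.18 in F Pxr-/-, beside 0.10, 0.02, -0.06 and 0.05 over all genes. ATB was compared with the same Cont mice that enter the PXR and sex comparisons.

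Loss of PXR was accompanied by lower Cyp7a1, Cyp8b1 and Baat in F Cont. Cyp7a1 was at 9.35 to 12.78 in Pxr+/+ (median 10.57) and at 6.93 to 9.83 in Pxr-/- (median 8.8), a 4.12-fold difference (log2 difference -2.04, SE 0.53, 95% interval -3.1 to -0.98, adjusted p = 0.0257 by limma). Cyp8b1 was at 8.23 to 10.44 (median 9.56) and at 7.65 to 9.6 (median 8.32), a log2 difference of -1.03 (SE 0.30, adjusted p = 0.0489). Baat was at 11.49 to 11.73 (median 11.67) and at 10.65 to 11.72 (median 11.2), a log2 difference of -0.46 (SE 0.13, adjusted p = 0.0421). In all 3 enzymes the ranges overlapped. The second probe of Cyp7a1, above background on 28 arrays, gave -0.64 (adjusted p = 0.135), and the second Baat probe gave -0.25 (adjusted p = 0.246). Within the wash batches Cyp7a1 differed by -2.71, -1.77 and -0.57, Cyp8b1 by -1.07, -1.16 and -0.63, and Baat by -0.48, -0.52 and -0.30.

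These 3 calls depended on single mice and on the scaling. The Cyp7a1 call was made in 6 of 12 fits that left out a mouse, the Cyp8b1 call in 2 of 12 and the Baat call in 5 of 12, over ranges of -2.32 to -1.61, -1.28 to -0.83 and -0.57 to -0.35. Without the Pxr+/+ mouse at 12.78, replicate 2, Cyp7a1 differed by -1.61 (adjusted p = 0.0903). With quantile normalization the differences were -1.92 (adjusted p = 0.0546), -0.89 (adjusted p = 0.139) and -0.34 (adjusted p = 0.0776). Of the 10 enzymes 0 were higher and 3 lower, in a contrast where 0.238% of all genes were called higher and 3.85% lower, and the median over the enzymes was -0.21 beside -0.12 over all genes. Markers of other cell types moved in this contrast too. Of the 10 macrophage markers 6 were lower in F Pxr-/- Cont, with a mean log2 level over the markers of 10.13 to 10.83 against 11.11 to 12.11, and of the 10 sinusoidal endothelial markers 6 were lower, with a mean of 9.53 to 10.5 against 10.39 to 10.71. With quantile normalization 3 macrophage and 2 endothelial markers were lower. None of the 10 hepatocyte markers was called, with a mean of 16.96 to 17.2 against 17.08 to 17.19. The part of these cell types in the enzyme differences was not tested.

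In M ATB, Cyp39a1 was lower without PXR. It was at 10.6 to 11.49 in Pxr+/+ (median 10.92) and at 9.55 to 9.99 in Pxr-/- (median 9.58), with no overlap, a 2.44-fold difference (log2 difference -1.29, SE 0.17, adjusted p = 3.41e-06 by limma). The 3 wash batches gave -1.24, -1.26 and -1.49. In M Cont the log2 difference was -0.25 and did not pass. In F ATB it was -0.10, and the difference between the sexes with ATB was -1.19 (SE 0.24, adjusted p = 0.0388), the one interaction that passed among the 10 enzymes and the 6 interactions tested. It did not pass with quantile normalization (-1.02, adjusted p = 0.347), nor in 17 of the 24 fits that left out a mouse, where it ran from -1.28 to -1.08. Baat in M ATB was at 11.61 to 12.02 in Pxr+/+ and at 11.29 to 11.54 in Pxr-/- with no overlap, but the log2 difference of -0.34 did not pass (adjusted p = 0.143).

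Cyp7a1 had log2 differences of -0.96 in M Cont (adjusted p = 0.997 by limma), -1.06 in M ATB (adjusted p = 0.216) and -0.06 in F ATB with PXR loss, where the 95% interval of -1.12 to 1 holds changes of either sign. In counts, limma called 0 of 10 enzymes for PXR loss in M Cont, with 1 at an unadjusted p under 0.05, as had 6.77% of all genes (0.16% of all genes higher, 0.032% lower), and 0 of 10 in F ATB, with 0 at that level, as had 6.96% of all genes (0.178% and 0.0503%). In M ATB 0 were higher and 1 lower (0.343% and 0.91%). Among the interactions, limma called 0 of 10 enzymes for ATB by genotype in M and F (0.0183% and 0% of all genes), for ATB by sex in Pxr+/+ and Pxr-/- (0.0457% and 0.00457%) and for PXR loss by sex in Cont (0.0229%), with 1, 4, 6, 2 and 2 enzymes at an unadjusted p under 0.05. Of all genes 7.67%, 13.9%, 17.2%, 7.28% and 6.83% were at that level. PXR loss by sex with ATB called 1 (0.0549%).

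**Figure D3:**
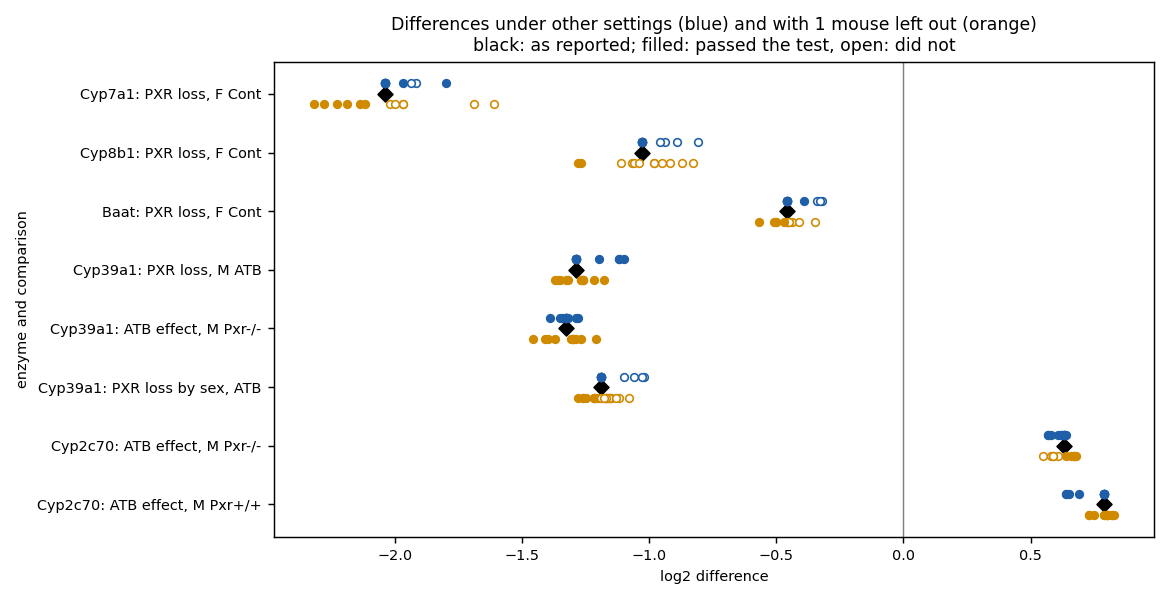
Log2 difference (horizontal axis) of 8 enzyme differences that passed the test (rows), as reported (black), under the 12 other settings (blue) and with 1 mouse left out (orange), filled where the test was passed. The settings with the brightest probe and with no fold minimum reuse the reported fit, so they could not differ from it here. All points of a row keep the same side of 0, and the Cyp39a1 rows for M Pxr-/- ATB and M ATB and the Cyp2c70 row for M Pxr+/+ stay filled throughout. The Cyp2c70 row for M Pxr-/-, the 3 F Cont rows and the interaction hold both open and filled points.

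The enzymes differed in how much they varied between mice of one group. The pooled within-group SD was 0.95 on the log2 scale for Cyp7a1, at the 99.8th percentile of all genes, and 0.54 for Cyp8b1, at the 98.4th. It was 0.32 for Cyp7b1, 0.30 for Cyp39a1, 0.23 for Akr1d1 and Baat, 0.21 for Cyp27a1, 0.20 for Cyp2c70, 0.16 for Hsd3b7 and 0.09 for Slc27a5, with a median of 0.19 over all genes. Slc27a5, at the 0.3rd percentile, had group means of 17.13 to 17.44, and Hsd3b7 of 15.84 to 16.19. Across the 47 mice Cyp7a1 and Cyp8b1 correlated at r = 0.26, and at 0.32 after the group means were removed. Akr1d1 correlated within groups at 0.63 with Baat and at 0.56 with Slc27a5. Cyp7b1 and Cyp39a1 correlated at -0.84 over all mice and at 0.13 within groups. These correlations are descriptions, with arrays, slides and wash batches in common.

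The genes whose pattern over the 47 mice was most like that of Cyp7a1 were Tmpo (r = 0.754), Arfgap2 (0.754), Iars (0.72), Lcmt1 (0.715) and Chaf1a (0.712). Those most like Cyp8b1 were Sdr9c7 (r = 0.83), 5730435O14Rik (0.808), Col27a1 (0.807), 2810408I11Rik (0.806) and E2f1 (0.805). These are the highest among all tested genes and are given without a test.

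Lists of other genes of the pathway were followed in the same fit. Of 19 regulators tested, which include FXR, its partner Nr0b2 and the FGF receptor Fgfr4 with its co-receptor Klb, limma called 0 for ATB in all 4 comparisons. At an unadjusted p under 0.05 were 2, 0, 1 and 3 in M Pxr+/+, M Pxr-/-, F Pxr+/+ and F Pxr-/-, beside 22.9%, 9.21%, 13.9% and 15.7% of all genes. The authors' processed values gave 1 called higher in F Pxr-/-. The median log2 difference was 0.15, 0.01, -0.05 and 0.09 in M Pxr+/+, M Pxr-/-, F Pxr+/+ and F Pxr-/-, beside 0.10, 0.02, -0.06 and 0.05 over all genes. For PXR loss 1 of 19 was lower in M ATB, where 0.91% of all genes were called lower: the xenobiotic receptor Nr1i3. Its groups did not overlap, and its probes gave -0.50 (adjusted p = 0.0575) and -0.62 (adjusted p = 0.0345), but 0 regulators were called there with quantile normalization. Between the sexes 10, 3, 6 and 8 of 19 were lower in males and 0 higher in Pxr+/+ Cont, Pxr+/+ ATB, Pxr-/- Cont and Pxr-/- ATB, where 34.1%, 10.2%, 15.8% and 27.4% of all genes were called lower. With quantile normalization 2, 3, 3 and 4 were lower, beside 9.22%, 9.13%, 7.08% and 7.32% of all genes. With the processed signal 1 was lower and 1 higher in Pxr+/+ Cont. Cdkn1c, a cell cycle inhibitor, was lower in males with log2 differences of -1.21, -1.07, -1.18 and -1.21, and from -1.02 to -0.95 with quantile normalization.

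Of 17 bile acid transporters tested, Slco1a1 and Slco1a4, organic anion uptake carriers, differed most. Slco1a1 was at 12.04 to 12.79 in M Pxr+/+ Cont and at 5.01 to 9.21 in the females (log2 difference 4.96, adjusted p = 1.19e-10 by limma), with log2 differences of 4.03 to 6.1 in the other conditions. Slco1a4 was lower in males, with log2 differences of -1.27 to -3.81. In M Cont it was at 9.74 to 10.59 in Pxr+/+ and at 6.65 to 7.8 in Pxr-/- (log2 difference -2.92, adjusted p = 1.23e-12 by limma). In M ATB its median was 10.24 in Pxr+/+ and 8.25 in Pxr-/-, with no overlap (-2.21, adjusted p = 2.96e-10). In females the PXR difference was -0.50 in Cont (adjusted p = 0.149) and -0.06 with ATB, and the difference between the sexes in the PXR effect was -2.42 in Cont (adjusted p = 9.27e-06) and -2.15 with ATB (adjusted p = 2.38e-05). In all, 1 of 17 transporters was lower for PXR loss in M Cont and 2 in M ATB, beside 0.032% and 0.91% of all genes. In F Cont 1 was higher (0.238% of all genes), and in F ATB 0 passed (0.178% higher and 0.0503% lower). The second lower one in M ATB was Slc10a1, by 1 of its probes (-0.43, adjusted p = 0.039, with -0.05 on the brighter one). With quantile normalization 1 transporter was lower and 1 higher in M ATB, and 1 was higher in F ATB. The higher one in F Cont was the basolateral exporter Abcc3 (0.50 to 0.62). Its ranges overlapped there, at 13.53 to 14.1 in Pxr+/+ and 13.84 to 14.74 in Pxr-/-. In F ATB it did not pass, but its ranges of 13.71 to 14.24 and 14.33 to 14.67 did not overlap, so the difference was not confined to Cont. With ATB 1 of 17 passed in M Pxr+/+, Ephx1, an epoxide hydrolase (-0.70, adjusted p = 0.0308 by limma), where 0.192% of all genes were called lower. In the other 3 comparisons 0 passed, but the mean of Ephx1 was lower with ATB in each. It was 15.42 against 16.04 in M Pxr-/-, 14.87 against 15.57 in F Pxr+/+ and 15.01 against 15.59 in F Pxr-/-. Between the sexes 3, 2, 2 and 2 transporters were higher in males and 7, 6, 7 and 10 lower, against 4, 4, 4 and 3 higher and 4, 6, 4 and 8 lower with quantile normalization. Of all genes 2.52%, 4.18%, 2.89% and 2.88% were called higher and 34.1%, 10.2%, 15.8% and 27.4% lower. With quantile normalization 9.04%, 8.02%, 7.69% and 7.96% of all genes were higher and 9.22%, 9.13%, 7.08% and 7.32% lower. The efflux pumps Abcg2 and Abcb1a had sex differences of 0.94 to 1.19 and of -1.74 to -1.62.

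Csad, which makes hypotaurine for the taurine that Baat joins to bile acids, was the one enzyme of taurine supply that fell with ATB. In F Pxr+/+ it went from 11.93 to 14.56 in Cont (median 13.37) to 10.61 to 11.28 with ATB (median 10.77), with no overlap, a 5.57-fold fall (log2 difference -2.48, SE 0.34, adjusted p = 0.000129 by limma). Its second probe gave -0.64 (adjusted p = 0.132). The brightest probe differed by -1.52 in F Pxr-/- (adjusted p = 0.0517), -1.24 in M Pxr+/+ (adjusted p = 0.0548) and -1.44 in M Pxr-/- (adjusted p = 0.135), and the first 2 of these passed with quantile normalization. These values were chosen after they had been seen. Csad was also lower in F Cont without PXR (-1.54, adjusted p = 0.0104), with overlapping ranges. Cdo1, the cysteine dioxygenase that precedes Csad, was higher with ATB in M Pxr+/+ (0.37, adjusted p = 0.024), but with quantile normalization its difference was 0.22 (adjusted p = 0.127). Of 5 taurine supply genes, ATB called 1 higher in M Pxr+/+ (1.13% of all genes), 0 in M Pxr-/-, 1 lower in F Pxr+/+ (0.0137% of all genes) and 0 in F Pxr-/-. PXR loss called 0 in M Cont, 1 lower in M ATB (Cdo1, -0.39, adjusted p = 0.0167, and 0.136 with quantile normalization), 2 lower in F Cont and 0 in F ATB. Of all genes 0.91% were called lower in M ATB and 3.85% in F Cont.

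**Figure D4:**
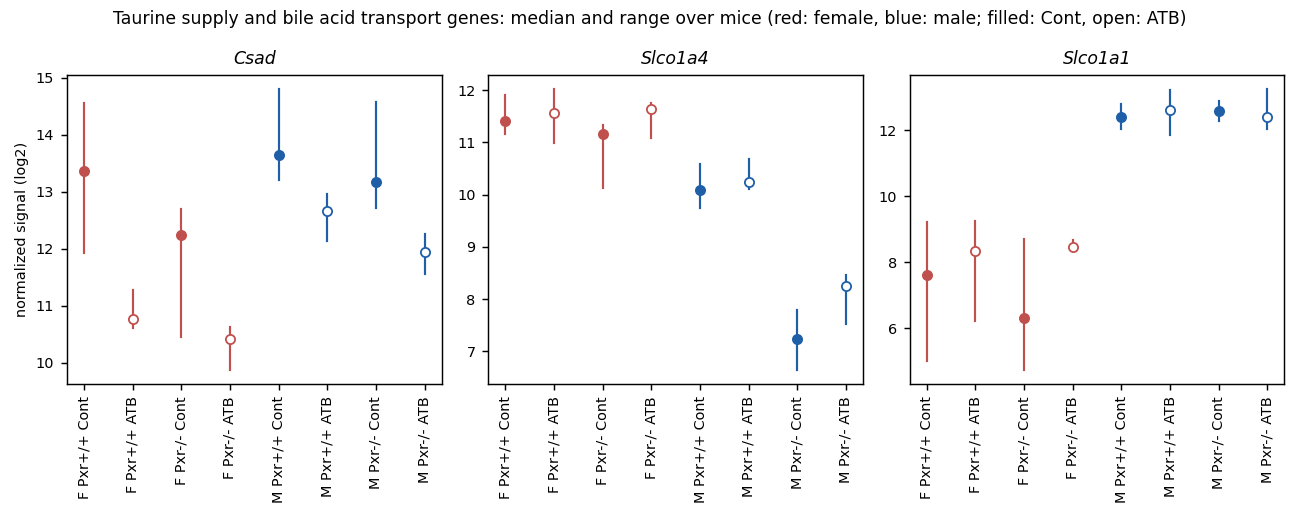
Normalized log2 signal (vertical axis, a separate scale in each panel) of Csad, Slco1a4 and Slco1a1 in the 8 groups (horizontal axis), as the median with a line from the lowest to the highest mouse. The Csad median is lower with ATB in each of the 4 pairs of groups, Slco1a4 is lowest in the male Pxr-/- groups (6.65 to 8.46), and Slco1a1 is above 11 in each male group and below 10 in each female group.

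Among 19 side chain and accessory enzymes, limma called 0 for ATB in all 4 comparisons (1 lower in M Pxr+/+ with quantile normalization). At an unadjusted p under 0.05 were 4, 4, 0 and 4, beside 22.9%, 9.21%, 13.9% and 15.7% of all genes. For PXR loss 1 was lower in M ATB, where 0.91% of all genes were called lower: Acnat2 (-0.88, adjusted p = 0.0238 by limma, overlapping ranges, and 0 with quantile normalization). The mean of Acnat2 was also lower without PXR in M Cont (9.49 against 10.34), F Cont (12.28 against 12.79) and F ATB (12.36 against 12.56), where it did not pass. Between the sexes 2, 3, 2 and 1 were higher in males and 4, 4, 4 and 5 lower, against 5, 5, 6 and 3 higher and 4, 4, 4 and 4 lower with quantile normalization. The shares of all genes are those given above for the transporters. Acnat2, a relative of Baat, had sex differences of -2.45 to -3.62. Of 7 further targets of FXR, 2 were higher with ATB in M Pxr+/+, where 1.13% of all genes were called higher: Fetub (0.38, adjusted p = 0.0208) and Kng1. The Kng1 call came from 1 of its 3 probes and not the brightest (0.41, adjusted p = 0.00852), while the brightest gave 0.24 (adjusted p = 0.036, under the fold minimum) and the third gave 0.22 (adjusted p = 0.218). With quantile normalization 0 were called there. The median log2 difference of the 7 targets in M Pxr+/+ was -0.02, beside 0.10 over all genes. For ATB in M Pxr-/-, F Pxr+/+ and F Pxr-/- limma called 0 of 7, with 1, 2 and 2 at an unadjusted p under 0.05. For PXR loss it called 0 of 7 in M Cont, M ATB, F Cont and F ATB, with 0, 0, 2 and 0 at that level. The mean of Fetub was also higher with ATB in M Pxr-/- (15.72 against 15.4), F Pxr+/+ (15.83 against 15.61) and F Pxr-/- (15.91 against 15.71). Of 16 clock genes limma called 0 for ATB or PXR loss in any of the 8 comparisons. At most 2 were at an unadjusted p under 0.05, a level met by 6.77% to 27.8% of all genes. Their median log2 difference was 0.39 in M Pxr+/+ with ATB beside 0.10 over all genes. The lists share genes with one another, among them Nr0b2, Abcb11 and Abcb4.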

How the data were processed

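Liver total RNA of 47 mice was labelled with Cy3 and hybridised by the authors to Agilent 8x60K mouse arrays, one array a mouse, on 6 slides in 3 wash batches. Each deposited file holds one array's scanner intensity per spot, written by Agilent Feature Extraction 10.10.1.1 per the submitters' processing notes. The deposited value table holds the authors' processed log2 values and served as an alternative. The authors filtered the median signal (the rule is not given in the sources used here), corrected for wash batch, normalized with CrossNorm and fitted limma, and the steps below follow theirs.

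Log2 of the median signal was taken, control spots and 422 non-uniform spots were left out, and spots of one probe were averaged. A probe was kept (32979 of 56605) if in some group 5 or more arrays flagged it as well above background. The wash batch was removed and CrossNorm run with 300 random draws, each stacking 1 array of every group. limma 3.58.1 in R 4.3.3 fitted the 8 groups with wash batch as a covariate, and 12 pairwise contrasts and 6 interactions were tested with Benjamini-Hochberg adjustment over all probes (FDR 0.05, fold above 1.2). The code was tested on simulated data. Gene names were updated by accession for 1535 probes. The 75th percentile of signal was 306 to 492.5 and the median background 15 to 21, with 31087 to 34477 probes well above background per array.

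Named genes were the 10 enzymes in every comparison, list genes called with no overlap between groups (at most 6 a list and comparison, by adjusted p), and the 5 genes correlating best with Cyp7a1 and with Cyp8b1. Other list genes and values were named after they had been seen. The enzymes and lists were chosen with earlier results of these data known. The other settings tried were quantile normalization, processed signal, normexp, the authors' values, other filters, no wash batch, slide or replicate block, only the groups compared, the brightest probe, no fold minimum and leaving out each mouse. Running the lists under the other scalings was added after the data had been seen.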

Additional observations from a re-analysis of the deposited data

Results flagged for a closer look

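In 5 of the 80 combinations of enzyme and group, 1 mouse stood apart from the others by Dixon's criterion, which chance meets in about 1 in 20 groups. Cyp7a1 in F Pxr+/+ ATB replicate 5 was at 7.74 against 9.12 for the nearest mouse. Cyp39a1 in F Pxr-/- Cont replicate 1 was at 11.35 against 12.24. Cyp2c70 in M Pxr+/+ ATB replicate 2 was at 16.3 against 16.01. Hsd3b7 in F Pxr-/- ATB replicate 6 was at 16.47 against 16.19. Akr1d1 in M Pxr+/+ Cont replicate 1 was at 9.24 against 9.46. The difference between the sexes in the Cyp39a1 effect of PXR loss with ATB was also singled out, because the interaction itself passed (-1.19 on the log2 scale, adjusted p = 0.0388 by limma).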

How the results depend on the processing

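Of 4980 enzyme differences recomputed under another setting or without 1 mouse, 0 called ones changed direction, 149 uncalled ones changed sign, 77 lost and 34 gained a call. Those with the brightest probe and with no fold minimum reuse the reported fit, so no value could change and no call could be lost there. All 24 called differences on the brightest probe had one direction in the 3 wash batches. The batches held up to 3, 2 and 1 mice a group. Their values are the same ones that gave the calls, so this is not a replication. The number of enzymes called was 3 for ATB in M Pxr+/+ when only the groups compared were fitted (reported: 1) and 1 for ATB in M Pxr-/- (reported: 2). For PXR loss in F Cont (reported: 3) it was 0 with quantile normalization, with the processed signal and with only the groups compared, and 1 with normexp, without the filter and without the wash batch. For PXR loss by sex with ATB (reported: 1) it was 0 with quantile normalization, processed signal, normexp, the authors' values and no filter. The cause was not tested. Leaving out 1 mouse gave 1 to 2 enzymes for ATB in M Pxr+/+ and in M Pxr-/-, 0 to 1 in F Pxr+/+, 0 to 3 for PXR loss in F Cont, 4 to 6 for sex in Pxr+/+ Cont and in Pxr+/+ ATB, 4 to 5 in Pxr-/- Cont and in Pxr-/- ATB, 0 to 1 for ATB by sex in Pxr-/- and 0 to 1 for PXR loss by sex with ATB. It moved no other count. Under quantile normalization Baat (0.37) also passed for sex in Pxr-/- Cont.

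The replicate numbers did not pair the mice: same-numbered mice of the groups compared correlated between -0.34 and 0.55 in their deviations. With the replicate number as a block, Cyp7a1 for PXR loss in F Cont had an adjusted p of 0.0269 and the brighter Baat probe passed for sex in Pxr+/+ ATB (adjusted p = 0.0461). No count of called enzymes moved by over 1.5 times.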
